A study of Mus musculus with 21 samples.

Results

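Liver RNA of antimiR-122 treated mice was compared between day 9 and day 3. The samples were the 3 arrays labelled treated at day 9 and the 3 labelled treated at day 3 in the array set p0617, 6 of the 21 arrays of the series, chosen by their labels. All 6 mice were female NMRI mice, an outbred stock. Each had received 25 mg/kg of SPC3372, a locked nucleic acid oligonucleotide directed against microRNA-122, at day 2, so that the livers were taken 1 day and 7 days after dosing. The 6 saline arrays beside them came from female NMRI mice given saline vehicle at day 2 and killed on the same days, again 3 mice per day, and were used only to see how much of the change followed the sampling day. No treated array entered the saline comparison. The labels used here give neither the age of the mice nor the time of day or feeding state at sampling. Each array hybridised the RNA of 1 mouse, and the mice were sacrificed on the day of sampling, so groups of different days were taken as different animals. The labels nonetheless repeat mouse numbers across the days: number 8 stands in both treated groups, and numbers 1, 2 and 3 in both saline groups.

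Values are log2 expression levels, where a step of 1 is a 2-fold change, and they ran from 2.15 to 14.98 over the series. A change is day 9 minus day 3 in log2, given with its standard error (SE), and adjusted p is Benjamini-Hochberg adjusted over all genes in a limma fit. Alb, which encodes serum albumin, measured 14.86, 14.86 and 14.84 on the log2 scale at day 3 and 14.80, 14.82 and 14.82 at day 9. Of 12 listed hepatocyte markers 10 were measured, and 1 of them, Tat, changed. Replicate arrays correlated with r of 0.992 to 0.994 within day 3 and 0.993 to 0.995 within day 9, against 0.986 to 0.989 between the days. No array stood apart over all genes. The ratio of the 3' to the 5' beta-actin control probe sets, a sign of RNA integrity and labelling, lay at 1.01 to 1.05 (log2) in the 3 treated arrays of day 3 and at 1.12 to 1.16 in those of day 9, without overlap. It also differed between the saline days, at 0.76 to 0.85 and 0.86 to 0.98. Its part in the results was not tested beyond the fit with the ratio as a covariate, whose calls are given with the counts.

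MicroRNA-122 is the most abundant microRNA of hepatocytes and represses its targets through sites in their messenger RNA. The acute phase response is the program by which hepatocytes, driven by interleukin-6 and interleukin-1, secrete serum amyloid A, orosomucoids and lipocalin into the blood within hours of an injury or infection. Type I interferon acts on a receptor common to almost all cells and induces genes through transcription factors that bind the interferon-stimulated response element. The circadian clock is a loop in which ARNTL and CLOCK activate the Per, Cry and Nr1d genes, whose products in turn repress ARNTL and CLOCK. In liver it sets a daily rhythm in many genes of lipid and glucose metabolism.

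To show what the moving genes carry upstream, promoters of list members were searched for short motifs on both strands in RefSeq windows of 300 bases (250 before to 50 after the start, build GRCm38.p6). The interferon-stimulated response element, searched as GAAA, any 2 bases and GAAA, was found in 14 of the 21 interferon response genes with a window (66.7%), against 3.99% of 27025 genes. Of 13 such genes that fell between day 3 and day 9, 9 held it. The following stretches are printed 5' to 3' on the strand of the gene, with the letters that match the motif on either strand in capitals. They show that the element stands upstream of members that fell, the first 4, and of members that did not pass the test, the last 2.
Ifit1 (chr19:34640769-34640828, plus strand): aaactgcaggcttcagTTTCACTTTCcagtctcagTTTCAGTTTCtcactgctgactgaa
Ifit3 (chr19:34583365-34583424, plus strand): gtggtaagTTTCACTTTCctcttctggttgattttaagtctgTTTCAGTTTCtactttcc
Gbp3 (chr3:142559977-142560036, plus strand): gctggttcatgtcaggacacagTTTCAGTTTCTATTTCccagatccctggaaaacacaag
Irgm1 (chr11:48871421-48871480, minus strand): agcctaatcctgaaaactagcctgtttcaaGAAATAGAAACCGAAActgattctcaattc
Gbp2 (chr3:142620579-142620638, plus strand): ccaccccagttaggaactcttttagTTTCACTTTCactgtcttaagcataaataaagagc
Igtp (chr11:58199496-58199555, plus strand): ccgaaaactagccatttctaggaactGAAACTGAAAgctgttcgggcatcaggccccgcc
Ifit1, Ifit3, Gbp3 and Irgm1 each hold 2 matches within 60 bases, which overlap in Gbp3 and Irgm1, and Gbp2 and Igtp hold 1 each. A match is a description of letters and shows no binding.

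For the acute phase genes the element of C/EBP factors, searched as TTGCNNAA, was found in 13 of 24 genes with a window (54.2%), against 12.2% of all genes, and in 6 of the 9 called genes with a window. The motifs TTCCNGGAA, for STAT3, and GGG, any 2 bases and TTTCC, for NF-kappa B, were found in 2 (8.33%) and 3 (12.5%) of the 24, against 1.35% and 1.89% of all genes. Neither was found in any of the 9 called genes. The C/EBP letters also stood in members that did not pass, among them Saa4, Fga and Fgb. The 5 members with the largest falls all held the C/EBP letters, in capitals here.
Saa1 (chr7:46743129-46743188, minus strand): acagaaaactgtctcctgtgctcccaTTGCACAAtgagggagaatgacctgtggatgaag
Saa2 (chr7:46751624-46751683, plus strand): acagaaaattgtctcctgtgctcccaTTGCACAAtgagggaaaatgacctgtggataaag
Saa3 (chr7:46715742-46715801, minus strand): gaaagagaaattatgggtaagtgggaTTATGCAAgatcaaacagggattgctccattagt
Orm2 (chr4:63362303-63362362, plus strand): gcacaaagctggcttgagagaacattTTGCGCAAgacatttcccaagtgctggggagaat
Lcn2 (chr2:32387922-32387981, minus strand): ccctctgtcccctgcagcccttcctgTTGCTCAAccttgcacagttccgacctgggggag
The upstream 250 bases of Saa1 and Saa2 were identical at 94.8% of aligned positions and those of Saa1 and Saa3 at 52.2%. Saa1 and Saa2 are also near-identical in their transcripts, so their probe sets may read each other's RNA and their levels are uncertain as separate values.

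Among the clock genes the E-box CACGTG was found in 5 of 17 windows (29.4%), against 8.09% of all genes, the D-box TTATGTAA in 1 of 17 against 1.11%, and the REV-ERB and ROR element TAGGTCA in 2 of 17 against 2.97%. Of 11 called clock genes with a window only 2 held the E-box, Cry1 and Tef. Per1, Bhlhe41 and Ciart held it too and were not called. The stretches below are from genes that changed, with an E-box in Cry1 and Tef, 2 copies of the D-box in Per3 and the REV-ERB and ROR letters in Nfil3.
Cry1 (chr10:85185082-85185141, minus strand): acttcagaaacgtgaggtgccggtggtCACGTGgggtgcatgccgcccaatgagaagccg
Tef (chr15:81802519-81802578, plus strand): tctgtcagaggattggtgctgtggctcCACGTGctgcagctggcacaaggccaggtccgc
Per3 (chr4:151044814-151044873, minus strand): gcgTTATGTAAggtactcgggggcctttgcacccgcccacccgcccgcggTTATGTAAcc
Nfil3 (chr13:52981040-52981099, minus strand): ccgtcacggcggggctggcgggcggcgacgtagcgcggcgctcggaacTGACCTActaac
The share of genes with a motif describes the lists and was given no test.

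Of 18193 genes tested with limma, 2226 (12.2%) passed an adjusted p of 0.05 between day 3 and day 9 of the treated mice, 1325 (7.28%) higher and 901 (4.95%) lower at day 9. At an unadjusted p under 0.05 the count was 4837 (26.6%). A change of at least 2-fold was reached by 197 of the called genes, 115 higher and 82 lower. The same test in saline mice called 1070 genes (5.88%), 503 (2.76%) higher and 567 (3.12%) lower, 145 of them by at least 2-fold. The split of the treated calls depended on the scale: with each array centred on its median it was 1611 higher and 668 lower. With the beta-actin ratio as a covariate 1294 genes were called in the treated mice. Without replicate 1 of treated day 3 the count was 1251, and without replicate 1 of treated day 9 it was 1417.

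Part of the time course was common to both treatments. Of the treated calls 588 (26.4%) were also called in saline, which is 55.0% of the saline calls, and 586 of them moved in the same direction. The exceptions were Ndc80, a kinetochore gene, and Ttc17, which encodes a tetratricopeptide protein. Across genes, which are not independent replicates, the treated and saline changes had Pearson r of 0.544 and Spearman rho of 0.396 over 18193 genes, with no array in both. The difference of the changes itself passed the threshold for 26 genes (0.143%), 9 (0.0495%) higher and 17 (0.0934%) lower in the treated course, and 2117 genes (11.6%) had an unadjusted p under 0.05. A gene called in the treated mice and not in the saline mice is therefore not shown to differ between them unless this difference is given.

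**Figure D1:**
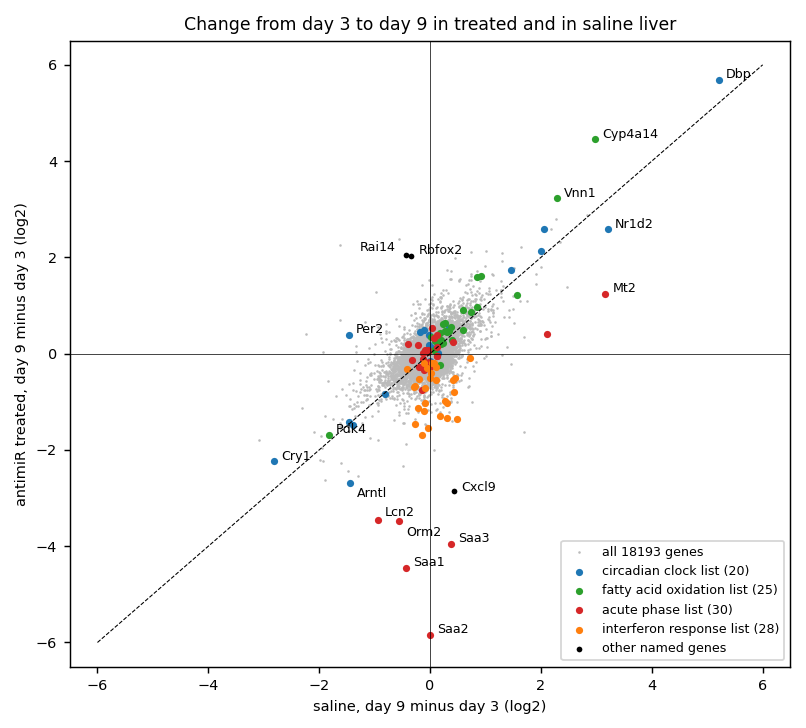
Change from day 3 to day 9 of 18193 genes, saline on the x axis and treated on the y axis, both in log2, with 4 gene lists in colour, 3 further genes in black and a dashed line where the 2 changes are equal. Clock genes lie on both sides of the dashed line, with Dbp (5.21 in saline, 5.68 in treated) above it. Arntl (-1.45 in saline, -2.69 in treated) and Nr1d2 lie below it. Fatty acid oxidation genes also lie on both sides, with a median difference of the changes of 0.14. Saa1, Saa2, Saa3, Orm2, Lcn2 and most interferon genes lie below the line, with Saa2 lowest at -5.85 and near 0 in saline.

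The largest increase of the treated course was Dbp, the D-box binding factor and an output of the clock. It measured 5.12, 5.89 and 5.35 at day 3 and 11.08, 11.21 and 11.10 at day 9, a change of 5.68 ± 0.37 (SE), or 51.2-fold, adjusted p = 2.55e-07. The saline livers went from 4.59, 5.42 and 5.22 to 10.15, 9.76 and 10.96, by 5.21 ± 0.37. In both treatments the days did not overlap, and the difference of the changes did not pass (adjusted p = 0.769).

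The clock list moved in both treatments and in both directions. Of 21 listed genes 20 were measured, and 6 rose and 5 fell in the treated mice, against 12.2% of all genes called. In saline 5 rose and 6 fell, and 10 genes were called in both with the same direction. Among the repressors of the loop, Nr1d1 rose by 2.13 and Nr1d2 by 2.58 in treated mice, beside 2.0 and 3.20 in saline. Per3 rose by 2.59 ± 0.31, from 5.26, 5.18 and 5.70 to 8.29, 8.04 and 7.58. Tef, a relative of Dbp, rose from 7.91, 7.92 and 7.80 to 9.65, 9.61 and 9.60, a change of 1.74 ± 0.12. None of these 3 genes overlapped between the days.

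Activators of the loop fell, as did Cry1 and Nfil3. Arntl, the central activator, measured 8.17, 8.16 and 8.27 at day 3 and 5.39, 5.76 and 5.39 at day 9, a change of -2.69 ± 0.18 (6.43-fold, adjusted p = 2.55e-07). Saline Arntl went from 8.20, 8.39 and 8.04 to 6.87, 7.12 and 6.31, by -1.45 ± 0.18. The arrays of treated day 9 lay below those of saline day 9, whereas the 2 treatments overlapped at day 3, and the difference of the changes was -1.24 ± 0.25 with adjusted p = 0.0553, short of the threshold. Clock fell by 0.84, Npas2 by 1.41, Cry1 by 2.24 and Nfil3, a repressor at D-boxes, by 1.49, beside saline changes of -0.82, -1.46, -2.81 and -1.39.

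Per2, a repressor of the loop, measured 6.44, 6.12 and 5.51 at day 3 and 6.41, 6.65 and 6.16 at day 9 in treated mice, a change of 0.38 ± 0.27 that did not pass (adjusted p = 0.397). In saline it fell from 6.75, 6.98 and 6.75 to 5.6, 4.95 and 5.53, by 1.47. The difference, 1.85 ± 0.39, had adjusted p = 0.0669 and did not pass either. Per1, Hlf, Bhlhe40, Bhlhe41, Ciart, Rora, Csnk1d and Csnk1e passed in neither treatment with the probe set used. When every probe set was tested, the other one of Hlf rose by 0.64 in treated mice (adjusted p = 0.0195), beside -0.15 in saline. In treated mice 1 of the 2 other probe sets of Per2 also passed, in the same direction as the one used. For Rora 1 of the 8 others passed, against the direction of the one used.

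Other large increases also had saline counterparts. Egr1, an immediate early transcription factor, measured 6.34, 6.52 and 6.73 at day 3 and 10.09, 9.34 and 8.82 at day 9, a change of 2.89 ± 0.61, beside 2.84 ± 0.61 in saline. Rgs16, a regulator of G protein signalling, rose by 2.79 (saline 2.28), the keratin gene Krt23 by 2.59 (saline 2.18), the phosphatidylcholine transfer protein gene Pctp by 2.22 (saline 1.65) and 4931408D14Rik by 2.13 (saline 1.01). All 5 were called in both treatments. Among the decreases, the phosphate transporter gene Slc34a2 fell by 2.62, Abtb2 by 2.54 and Ddit4, an inhibitor of mTOR signalling, by 2.43. Nnmt, nicotinamide N-methyltransferase, fell by 2.26. Their saline changes were -1.89, -1.30, -1.49 and -1.61, each called.

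A few acute phase genes had the largest falls of the treated course. Saa2, an acute phase serum amyloid A, measured 13.57, 13.51 and 13.65 at day 3 and 7.06, 8.94 and 7.18 at day 9. That is a change of -5.85 ± 0.42, or 57.7-fold (adjusted p = 3.67e-07), the largest change in size of all 18193 genes in the treated mice. Saline Saa2 measured 8.15, 8.40 and 9.68 at day 3 and 8.40, 9.19 and 8.63 at day 9, with a change of -0.00 ± 0.42. The treated arrays of day 3 stood above all others, and 2 of the 3 treated arrays of day 9 lay below every saline array. The difference of the changes was -5.85 ± 0.59 (adjusted p = 0.000173).

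Saa1, the second acute phase isoform, measured 13.54, 13.47 and 13.51 at day 3 and 8.26, 10.25 and 8.65 at day 9, a change of -4.46 ± 0.37 (21.9-fold), beside -0.44 ± 0.37 in saline. The days did not overlap in the treated mice. Saa3, which macrophages and adipose tissue also make, was spread at day 3, with 12.79, 9.86 and 12.02, and measured 7.63, 7.98 and 7.21 at day 9, a change of -3.95 ± 0.46. Its lowest day 3 array still lay above every day 9 array. Saa4, the constitutive member of the family, measured 11.76, 11.82 and 11.46 at day 3 and 11.85, 12 and 12.15 at day 9, a change of 0.32 ± 0.11 with adjusted p = 0.0636. The difference from the saline change passed for Saa1 (adjusted p = 0.00481) and Saa3 (adjusted p = 0.0132).

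Orm2, an orosomucoid that binds small molecules in plasma, measured 10.91, 10.72 and 10.50 at day 3 and 6.64, 8.09 and 6.95 at day 9, a fall of 11.1-fold (log2 -3.48 ± 0.32, adjusted p = 6.24e-06). The treated days did not overlap, and 2 of the 3 treated arrays of day 9 lay below the saline ones of that day, which measured 8.59, 8.30 and 7.82. The difference of the changes was -2.92 ± 0.46 (adjusted p = 0.0178). Lcn2, lipocalin 2, which binds bacterial siderophores, measured 12.65, 11.99 and 12.38 at day 3 and 8.45, 10.15 and 8.05 at day 9, a change of -3.45 ± 0.48. All 3 day 9 arrays were lower, and replicate 2 was the highest of them in Lcn2, Saa1, Saa2, Saa3 and Orm2 alike. Its saline change was -0.94 ± 0.48, and the difference did not pass (adjusted p = 0.171).

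Over the whole acute phase list the fall was narrow. Of 31 genes 30 were measured, 9 fell and 1 rose, against 4.95% and 7.28% of all genes, and the median change was -0.08 beside -0.03 for all genes tested. In saline Il1rn and Mt2 rose and no member fell in the limma fit, and 3 had an unadjusted p under 0.05. The other called decreases were small: Orm1 by 0.76, Apcs, the serum amyloid P component, by 0.34, Itih4 by 0.28 and the heme carrier Hpx by 0.25. Stat3, a transcription factor of the response, was the member that rose, by 0.54. The fibrinogen genes measured changes of 0.00, 0.07 and 0.03, and those of Crp, Hamp, Socs3 and Serpina3n also did not pass. Over the list 9 of 30 had all 3 treated arrays above all 3 saline arrays at day 3 and 3 had them below, and at day 9 1 lay above and 2 below. Among all genes 11.1% lay wholly above and 10.4% below saline at day 3, and 10.4% above and 11.2% below at day 9.

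Interferon response genes fell in the treated mice by moderate amounts. Of 32 genes 28 were measured, and 17 fell and none rose, against 4.95% and 7.28% of all genes tested. The median change was -0.68 beside -0.03 for all genes. In saline 0 of the 28 passed in the limma fit, 2 had an unadjusted p under 0.05, and the median was 0.02. The difference of the changes had an unadjusted p under 0.05 for 16 members and passed for 2.

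Ifit2, whose product binds viral RNA, had the largest change of the list. It measured 7.71, 8.15 and 7.50 at day 3 and 6.05, 5.65 and 6.56 at day 9, a change of -1.70 ± 0.23 (3.25-fold, adjusted p = 0.000207). Saline Ifit2 measured 5.07, 5.02 and 5.38 at day 3 and 5.13, 4.56 and 5.33 at day 9. The treated days did not overlap, and the treated arrays of day 9 still lay above those of saline day 9. The difference of the changes, -1.55 ± 0.33, had adjusted p = 0.069.

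Irf7, the transcription factor that amplifies interferon production, measured 8.72, 9.46 and 8.72 at day 3 and 7.57, 7.39 and 7.88 at day 9, a change of -1.35 ± 0.21. In saline it measured 6.10, 6.0 and 6.69 at day 3 and 6.73, 6.75 and 6.77 at day 9, a change of 0.49 ± 0.21 in the other direction that did not pass. The difference, -1.84 ± 0.30, passed (adjusted p = 0.0221). Oasl2, a relative of the oligoadenylate synthetases, measured 7.43, 7.78 and 7.16 at day 3 and 6.04, 5.77 and 6.55 at day 9, and its difference of -1.64 ± 0.30 also passed (adjusted p = 0.0364). In both genes the treated days did not overlap.

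The other members lay between those and no change. Ifi27l2a fell by 1.54 and Cmpk2, a mitochondrial nucleotide kinase, by 1.46. Ifit1 measured 8.77, 9.95 and 9.18 at day 3 and 7.78, 8.06 and 8.19 at day 9 and fell by 1.29, with adjusted p = 0.0288. Oas1a, Rsad2, Bst2, Gbp3, Ifit3, Rtp4, Mx2, Stat2, Irgm1, Ifih1 and Oas2 fell by 1.18 down to 0.52. Cxcl10, Mx1, Usp18, Zbp1, Xaf1, Gbp2, Igtp, Oasl1, Oas3, Irf9 and Ddx58 did not pass. A dimmer probe set of Ddx58 rose by 0.74 and passed when every probe set was tested (adjusted p = 0.016). Xaf1 was spread at day 3, with 9.13, 9.62 and 7.35.

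At day 9 the mean level of the interferon genes lay between that of treated day 3 and that of saline. Over the list 26 of 28 genes had all 3 treated arrays above all 3 saline arrays at day 3 and 15 of 28 did at day 9, against 11.1% and 10.4% of all genes. The mean level of the list was 8.02 to 8.53 in the treated arrays of day 3, 7.42 to 7.51 in those of day 9, 6.65 to 7.04 in saline day 3 and 6.72 to 6.91 in saline day 9. Cmpk2, Bst2 and Mx2 were among the genes whose treated day 9 arrays overlapped saline, while Ifit1, Ifit2, Irf7, Oasl2 and Ifi27l2a did not overlap.

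**Figure D2:**
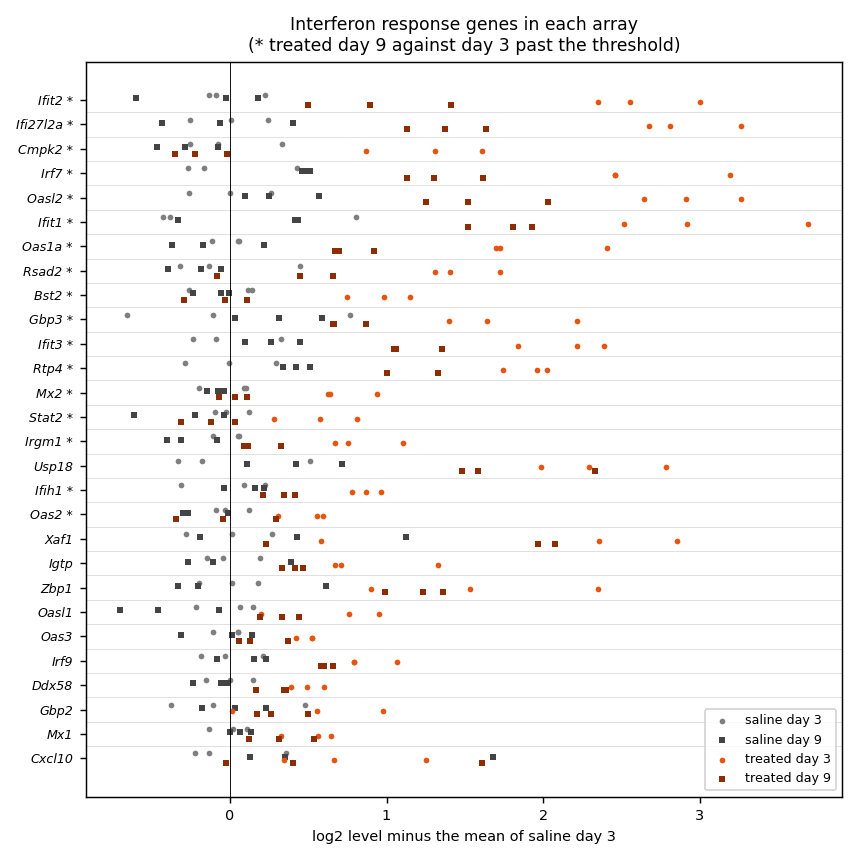
Log2 level of each of 28 interferon response genes minus its mean in saline day 3 (x axis), 1 row per gene and 1 point per array, with circles for day 3 and squares for day 9 and an asterisk for the 17 genes that fell. Orange circles of treated day 3 lie farthest right in most rows, the brown squares of treated day 9 lie between them and saline or among saline, and the grey points of both saline days lie around 0 in most rows.

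Some markers of immune cells fell beside these genes. In bulk liver fewer cells of a type and less RNA per cell cannot be told apart. Of 20 Kupffer cell and macrophage markers 19 were measured, 8 fell and none rose, against 4.95% and 7.28% of all genes, with a median change of -0.54. In saline 0 passed in the limma fit and 0 had an unadjusted p under 0.05, with a median of -0.01. Their mean level was 8.74 to 9.31 in treated day 3, 8.39 to 8.44 in treated day 9, 7.85 to 8.70 in saline day 3 and 8.02 to 8.37 in saline day 9. Itgam, an integrin, was low in every array, with 3.32, 3.36 and 3.37 at treated day 3. The part of these cells in the interferon and acute phase changes was not tested.

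Marco, a scavenger receptor of macrophages, measured 6.75, 7.72 and 7.15 at day 3 and 5.09, 5.66 and 4.86 at day 9. It fell by 4.01-fold (log2 -2.0 ± 0.35, adjusted p = 0.00146), and its saline arrays measured 5.31, 4.39 and 5.98 at day 3 and 5.03, 5.54 and 5.30 at day 9. The treated days did not overlap, and the day 9 arrays fell among the saline ones. The protease Ctss fell by 0.88, the complement receptor Vsig4 by 0.79 and the growth factor receptor Csf1r by 0.76. Clec4f, the lectin that defines Kupffer cells, measured 10.39, 10.97 and 10.38 at day 3 and 10.17, 9.99 and 10.27 at day 9, a change of -0.44 ± 0.18 that did not pass (adjusted p = 0.127), and Lyz2 and Mrc1 did not pass either.

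Of 18 lymphocyte markers 16 were measured, 3 fell (Ptprc by 0.83, the granzyme gene Gzmb by 0.92 and Cd3e by 0.30) and none rose, which is 18.8% called against 12.2% of all genes, with a median of -0.24. In level 12 of the 16 lay below the median of all genes tested. Gzmb measured 6.37, 7.02 and 6.29 at day 3 and 5.96, 5.42 and 5.55 at day 9. Ptprc, which encodes CD45 and marks all leukocytes, measured 8.99, 9.15 and 8.64 at day 3 and 7.96, 8.12 and 8.20 at day 9, with no overlap in either gene. Of 11 measured monocyte and neutrophil markers 1 fell, Ngp, by 0.47, which is 9.09% called.

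Of 20 chemokine genes 19 were measured, 4 fell and none rose, which is 21.1% called against 12.2% of all genes. Cxcl9, an interferon-gamma induced attractant of T cells, was the most variable, with 12.27, 9.02 and 10.94 at day 3 and 7.74, 8.42 and 7.50 at day 9. Its change was -2.85 ± 0.54 (7.22-fold, adjusted p = 0.00235), and the lowest array of day 3 still lay above the highest of day 9. Its saline change was 0.43 ± 0.54, and the difference did not pass (adjusted p = 0.0928). Ccl5 fell by 1.16, Ccl6 by 0.67 and Cxcl13 by 0.60. Cxcl10, Cxcl1, Ccl2 and the rest did not pass.

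Of 19 measured complement genes 3 fell (15.8% against 12.2% of all genes called), C1qb by 0.84, the terminal component C9 by 0.82 and properdin, Cfp, by 0.65. C1qb and Cfp are made mainly by macrophages and C9 by hepatocytes. With the beta-actin ratio as a covariate none of these 3 passed (adjusted p = 0.0974, 0.106 and 0.129). In the antigen presentation list 1 of 16 fell, the loading factor Tapbp, by 0.54, and 1 rose, the transactivator Nlrc5, by 0.59, which also rose in saline by 0.89. That is 12.5% of the list, near the 12.2% of all genes called. Tapbp did not pass with the mean of its probe sets. The class I genes H2-K1, H2-D1 and B2m measured changes of -0.29, -0.18 and -0.08 that did not pass. The 8 other probe sets of H2-D1 had changes of the same sign, and 2 of them passed when every probe set was tested.

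**Figure D3:**
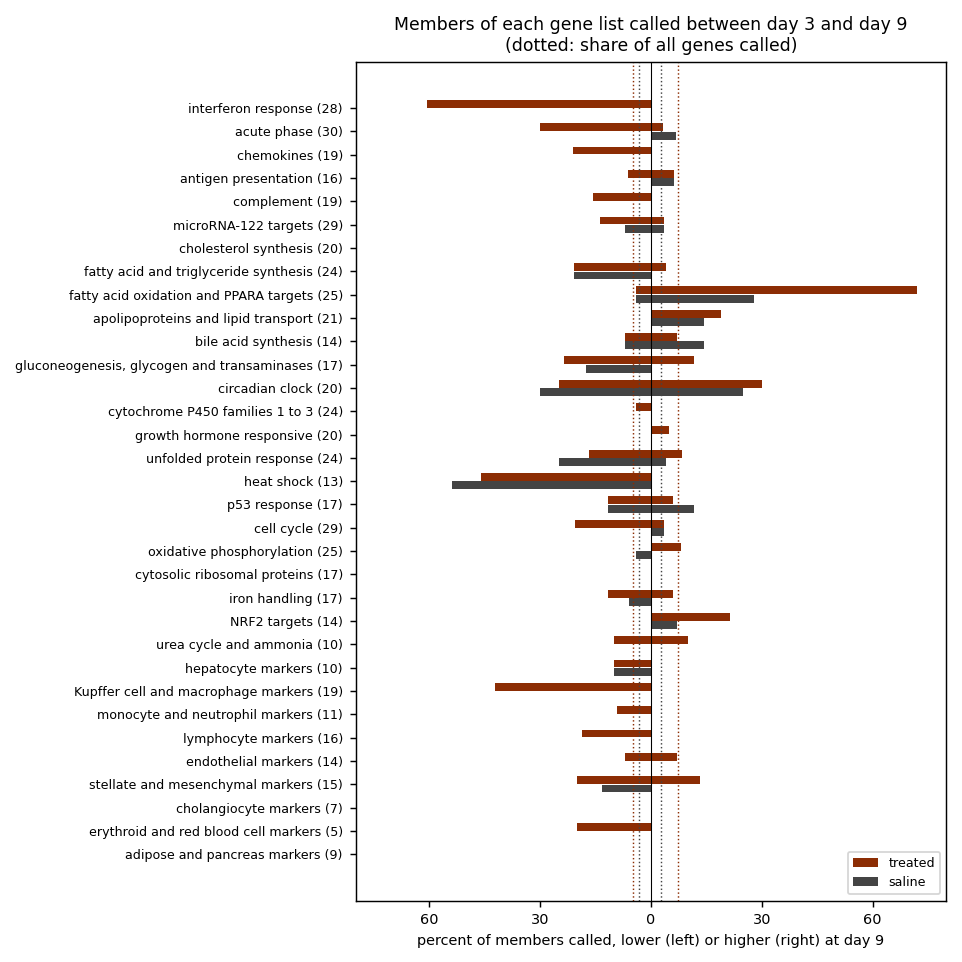
Percent of the measured members of each of 33 gene lists (number of members in parentheses) that passed the adjusted p of 0.05 between day 3 and day 9, lower at day 9 to the left and higher to the right, treated in brown and saline in dark grey. Dotted lines give the share of all genes called. The interferon and macrophage lists have treated bars to the left with no saline bar, heat shock and clock have both, and fatty acid oxidation has the longest bar to the right.

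Many fatty acid oxidation genes rose in treated mice, and some in saline. Of 28 genes 25 were measured, 18 rose and 1 fell, against 7.28% and 4.95% of all genes, with a median change of 0.48. In saline 7 rose and 1 fell, with a median of 0.31, and 8 members were called in both with the same direction. No member's difference passed in the limma fit, and 4 had an unadjusted p under 0.05. PPARA is the nuclear receptor that switches on this program in fasting liver. Ppara itself measured 9.40, 10.43 and 10.32 at day 3 and 11.65, 11.45 and 11.80 at day 9, a change of 1.58 ± 0.28 (adjusted p = 0.0016), beside 0.85 ± 0.28 in saline.

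Cyp4a14, an omega-hydroxylase and a sensitive PPARA target, measured 5.36, 5.13 and 7.0 at day 3 and 9.39, 9.60 and 11.83 at day 9. The change was 4.45 ± 0.71 (21.8-fold), against 2.98 ± 0.71 in saline, and the days did not overlap in either treatment. Vnn1, a pantetheinase, rose by 3.23 (saline 2.29), and Angptl4, an inhibitor of lipoprotein lipase, by 1.61 (saline 0.91). Of the mitochondrial pathway, Cpt1a rose by 0.98, Acadl by 0.64, Acadvl by 0.62, Hadhb by 0.56 and Hadha by 0.48. Pdk4, which blocks glucose oxidation, was the member that fell, from 7.28, 7.05 and 8.44 to 6.2, 5.66 and 5.84, by 1.69, and in saline mice it fell by 1.82. Fgf21, Fabp1, Ehhadh and Acaa1b did not pass.

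Fatty acid and triglyceride synthesis went the other way in part. Of 24 measured genes 5 fell and 1 rose in treated mice, against 4.95% and 7.28% of all genes, with a median of -0.30, and 5 fell and none rose in saline, with a median of -0.29. Elovl6 and Srebf1 were called in both. Scd1, the stearoyl-CoA desaturase, measured 13.58, 13.03 and 14.07 at day 3 and 10.99, 13.02 and 9.69 at day 9. Its change was -2.33 ± 0.56 (5.02-fold, adjusted p = 0.0116), with no overlap, although replicate 2 of day 9 lay just under the lowest array of day 3. Acacb fell by 1.44, Elovl6 by 1.30, Acly by 1.21 and Srebf1, the transcription factor of the pathway, by 0.62. Fads2 was the member that rose, by 0.67. With the beta-actin ratio as a covariate Scd1, Acacb, Elovl6 and Acly did not pass (adjusted p = 0.0618, 0.0853, 0.0669 and 0.0673). Replicate 3 of day 3 was the highest of its group in Acly, Acaca, Acacb, Fasn, Scd1, Elovl6, Thrsp and Srebf1.

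Pnpla3 and Fasn did not pass in treated mice, at -1.79 ± 0.69 and -1.14 ± 0.40. Pnpla3 fell in saline, from 8.14, 10.21 and 9.41 to 6.04, 6.65 and 5.82, and Srebf1 fell there by 1.40, Thrsp by 1.26 and Agpat2 by 0.63. No member's difference passed in the limma fit, and 3 had an unadjusted p under 0.05. A further probe set of Elovl6, dimmer than the one used, changed by 0.05 in treated mice and by -2.13 in saline. Its difference of 2.17 passed when every probe set was tested (adjusted p = 0.0199).

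Cholesterol synthesis genes were not called. Of 20 measured genes 0 passed in either treatment in the limma fit, and 1 had an unadjusted p under 0.05 in each. Their values turned on replicate 3 of treated day 9. Squalene epoxidase, Sqle, measured 9.09, 9.53 and 10.16 at day 3 and 9.90, 10.10 and 7.17 at day 9, with that array the lowest of all 12. The mean level of the list was 9.69 to 10.46 at day 3, and at day 9 it was 8.79 in that array and 10.29 and 10.42 in the others. The list's median change of -0.11 ranged from -0.38 to 0.34 when 1 array was left out. Hmgcs1, the synthase at the head of the pathway, measured 12.31, 12.44 and 13 at day 3 and 13.45, 13.40 and 11.67 at day 9, and Ebp, a sterol isomerase, 11.48, 11.51 and 11.88 at day 3 and 11.61, 11.85 and 11.29 at day 9, both with overlap. Without that array Hmgcs1 had a change of 0.84 with adjusted p = 0.004.

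Exporters of sterols and phospholipids rose. Abcg5 and Abcg8 encode the subunits of the transporter that moves cholesterol into bile. Abcg5 measured 8.88, 9.01 and 8.83 at day 3 and 10.42, 10.24 and 10.60 at day 9, a change of 1.51 ± 0.12 (2.85-fold, adjusted p = 1.31e-06). In saline it rose from 9.21, 9.23 and 9.31 to 9.70, 9.74 and 9.87, by 0.52. The treated arrays went from below the saline arrays at day 3 to above them at day 9, and the difference of 0.99 ± 0.17 passed (adjusted p = 0.0316).

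Abcg8 rose by 1.45 ± 0.14 in treated and 0.68 ± 0.14 in saline mice, and its difference did not pass (adjusted p = 0.165). Abcb4, the phospholipid flippase of bile, rose by 0.60 and 0.59. Apob, the protein of very low density lipoprotein, measured 12.23, 12.11 and 12.01 at day 3 and 13.26, 12.93 and 13.31 at day 9, a rise of 1.05 without overlap, beside 0.02 in saline. Of the 21 measured genes of lipid transport these 4 rose and none fell, which is 19.0% called against 12.2% of all genes. Apoa1, Apoe and the bile salt transporters Abcb11 and Slc10a1 did not pass.

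In bile acid synthesis 1 of 14 rose, Amacr by 0.60, and 1 fell, Akr1d1, the reductase of bile acid intermediates, by 0.79. That is 14.3% called, near the 12.2% of all genes. Cyp7a1, the rate-limiting enzyme, measured 11.51, 10.59 and 10.49 at day 3 and 11.02, 10.84 and 10.44 at day 9 in treated mice, which did not pass. In saline it rose by 0.98, and Cyp8b1 by 0.69. The differences were -1.08 ± 0.36 and -0.60 ± 0.17 and did not pass (adjusted p = 0.25 and 0.183). Of 24 measured cytochrome P450 genes of families 1 to 3, 1 fell, the phenobarbital-inducible Cyp2b10, by 1.24, which is 4.17% called.

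Several heat shock genes fell in both treatments. Of 13 measured genes 6 fell and none rose in treated mice, against 4.95% and 7.28% of all genes, and 7 fell in saline, 5 of them in both, and the medians were -0.45 and -0.54. Hspa1b, the inducible chaperone, measured 10.31, 9.81 and 9.75 at day 3 and 8.51, 8.16 and 8.59 at day 9, a change of -1.53 ± 0.36, beside -1.63 ± 0.36 in saline. Bag3, a co-chaperone, fell by 1.5 and 1.63, Hsph1 by 0.95 and 1.15 and Chordc1 by 0.95 and 1.14. The treated days did not overlap in these 4 genes.

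In the unfolded protein response list 4 of 24 fell and 2 rose, against 4.95% and 7.28% of all genes, and 5 were called in both treatments. Dnajb9, a chaperone of the endoplasmic reticulum, fell by 1.29 (saline 1.89), Manf by 0.95 (saline 0.92), the ubiquitin ligase Syvn1 by 0.79 (saline 1.33) and Hspa5 by 0.56 (saline 0.53). Trib3, a pseudokinase induced by ATF4, rose from 4.65, 5.58 and 5.81 to 7.61, 7.83 and 7.56, by 2.32 in treated and 2.34 in saline mice. Pdia3 rose by 0.46. Xbp1, Atf3 and Ddit3 did not pass.

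Of 17 p53 response genes 2 fell and 1 rose, which is 17.6% called against 12.2% of all genes. Cdkn1a, the cell cycle inhibitor p21, measured 7.10, 7.85 and 6.76 at day 3 and 5.44, 5.62 and 5.76 at day 9, a change of -1.63 ± 0.30, beside -2.09 ± 0.30 in saline. Zmat3 fell by 0.74 and Gadd45a rose by 1.14, each called with the same direction in saline.

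Some cell cycle genes fell in treated mice. Of 29 measured genes 6 fell and 1 rose, against 4.95% and 7.28% of all genes, with a median of -0.29, against 0.01 in saline, where none fell and 1 rose. Mki67, a marker of cycling cells, measured 6.37, 6.67 and 5.25 at day 3 and 4.69, 4.77 and 5.34 at day 9, a change of -1.16 ± 0.31 (adjusted p = 0.0227). Replicate 3 of day 3 lay below the highest array of day 9, so the groups overlapped, and the same array was lowest of its group for Top2a, Cdk1, Mcm5 and Rrm2. Top2a fell by 1.06, the helicase subunit Mcm5 by 1.02 and Rrm2 by 0.89, and the last 2 did not pass with the beta-actin covariate (adjusted p = 0.116 and 0.126). With the mean of their probe sets Top2a and Mcm5 did not pass. Neither of the 2 other probe sets of Top2a changed in the same direction, and 1 of the 2 others of Mcm5 did. Cdt1, a replication licensing factor, was the member that rose, by 0.64 in treated and 1.51 in saline mice. Ccnd1, Pcna and the cyclins A2 and B2 did not pass, and 17 of the 29 lay below the median level of all genes tested. A dimmer probe set of Ccnd1 rose by 1.49 in treated mice, beside -0.21 in saline. That rise passed when every probe set was tested (adjusted p = 0.0186).

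Glucose and amino acid metabolism changed in 6 of 17 measured genes (35.3% against 12.2% of all genes). Gys2, the liver glycogen synthase, measured 9.06, 8.99 and 9.22 at day 3 and 10.01, 9.90 and 10.13 at day 9, a rise of 0.93 ± 0.11 (adjusted p = 6.89e-05) beside 0.30 ± 0.11 in saline. Ppp1r3b and Ppp1r3c, which target a phosphatase to glycogen, fell by 1.44 and 1.08, and in saline by 1.63 and 1.34. The transaminase Got1 measured 10.91, 10.75 and 11.41 at day 3 and 10.31, 10.07 and 9.85 at day 9, a fall of 0.95, and Tat fell by 0.73, with saline changes of -0.27 and -1.09. Foxo1 rose by 0.30. The gluconeogenic genes Pck1, G6pc, Fbp1 and Pcx did not pass.

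The share called was 17.6% of 17 iron handling genes, 21.4% of 14 NRF2 targets and 20.0% of 10 urea cycle genes, against 12.2% of all genes. It was 8% of 25 oxidative phosphorylation genes and 5% of 20 growth hormone responsive genes. In iron handling Tfrc, the transferrin receptor, fell by 1.71 in treated and 1.96 in saline mice, and Smad1 rose by 0.46. Nqo1, Gclm and Abcc3 of 14 NRF2 targets rose, by 0.44, 0.31 and 0.45, and none of the 3 passed with the beta-actin covariate (adjusted p = 0.0947, 0.0709 and 0.0544). In saline Abcc3 changed by 0.49 and Gclm by 0.01, and 1 NRF2 target was called in both treatments with the same direction. Of 25 oxidative phosphorylation genes Uqcrc2 rose by 0.75 and Ndufs1 by 0.24, and of 10 urea cycle genes Slc25a13 rose by 0.45 and Arg1 fell by 0.37. Of 20 measured growth hormone responsive genes Acot3, an acyl-CoA thioesterase, rose by 0.87. None of the 17 measured ribosomal protein genes passed in the limma fit and 1 had an unadjusted p under 0.05, with Rps2 at 13.23, 13.11 and 13.29 at day 3 and 13.21, 13.21 and 13.16 at day 9 and Rpl4 at 13.03, 13.15 and 13.02 at day 3 and 13.12, 13.08 and 13.02 at day 9.

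Among markers of other cells, 2 of 15 stellate and mesenchymal genes rose, Hgf by 1.26 and Reln by 0.59, and 3 fell, Colec11 by 0.79, Lum by 0.72 and Pdgfrb by 0.39. That is 33.3% called against 12.2% of all genes. In saline 2 members fell and none rose, and 2 were called in both treatments with the same direction. The median change of the list was -0.39 in treated and -0.40 in saline mice. Of 14 endothelial genes Kdr rose by 0.42 and Cdh5 fell by 0.48, which is 14.3% called. Hbb-b2 of 5 erythroid genes fell by 0.75, which is 20% called. The 7 cholangiocyte and 9 adipose and pancreas markers gave 0 calls in the limma fit, and 0 and 1 of them had an unadjusted p under 0.05. The changes were -0.27 for Krt19, -0.08 for Epcam, 0.09 for Car3 and 0.05 for Cela1.

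Some of the microRNA-122 targets known from other work changed between day 3 and day 9. Of 31 genes 29 were measured, 4 fell and 1 rose, against 4.95% and 7.28% of all genes (17.2% called against 12.2%), with a median of -0.10 beside -0.03 for all genes, and in saline 2 fell and 1 rose. Aldoa, aldolase A, measured 10.07, 10.04 and 10.05 at day 3 and 9.87, 10.02 and 9.89 at day 9, against 9.26, 9.17 and 9.26 at day 3 and 9.23, 9.01 and 9.23 at day 9 in saline. Its treated arrays lay above the saline arrays at both days, and its change of -0.13 ± 0.08 did not pass. Bckdk measured 7.64, 7.67 and 7.85 at day 3 and 7.67, 7.80 and 7.90 at day 9, against 6.5, 6.61 and 6.58 at day 3 and 6.66, 6.68 and 6.83 at day 9 in saline, again apart from saline at both days.

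The same order of levels held for further targets. Ndrg3 measured 7.88, 8.14 and 7.85 at day 3 and 7.27, 7.76 and 7.55 at day 9 in treated mice, Ccng1 8.98, 9.06 and 8.94 at day 3 and 8.81, 8.78 and 8.73 at day 9, and neither change passed (adjusted p = 0.0702 and 0.171). The other probe set of Ndrg3 also fell and passed when every probe set was tested. In alternative fits the fall of Ndrg3 passed in 5 and that of Ccng1 in 2. Over the list 14 of 29 had all 3 treated arrays above saline at day 3 and 14 at day 9, against 11.1% and 10.4% of all genes. The mean level of the list was 7.49 to 7.57 in treated day 3, 7.38 to 7.45 in treated day 9, 7.11 to 7.19 in saline day 3 and 7.05 to 7.15 in saline day 9. In the mean of the list the treated days did not overlap, and both lay above saline.

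The targets that fell did so by small steps. Hjv, hemojuvelin, a coreceptor of iron sensing, measured 10.33, 10.11 and 10.54 at day 3 and 9.84, 9.81 and 9.99 at day 9, a change of -0.45 ± 0.13 (adjusted p = 0.03). Its day 9 arrays lay below those of day 3 and above saline day 9, at 9.13, 9.19 and 9.34. Adam10, a membrane protease, fell by 0.33, Igf1r by 0.29 and the prolyl hydroxylase P4ha1 by 0.49, and P4ha1 fell in saline too, by 0.81. None of the 4 other probe sets of Igf1r changed in the same direction. With the mean of its probe sets Adam10 did not pass. Nt5c3, a nucleotidase, rose by 0.63 and in saline by 0.45. Cd320, Slc7a1, Gys1, Tmed3 and Cers6 had changes of -0.11, -0.05, -0.27, -0.41 and -0.29 and did not pass. No member's difference from saline passed in the limma fit, and 4 had an unadjusted p under 0.05.

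Of the 9 genes whose treated change lay above the saline change, Rai14 and Rbfox2 had the largest differences. Rai14, a cytoskeletal ankyrin repeat protein, measured 4.43, 4.59 and 4.34 at day 3 and 6.89, 6.08 and 6.56 at day 9, a rise of 2.06 ± 0.16 (4.16-fold, adjusted p = 1.18e-06). In saline it measured 8.43, 8.18 and 8.46 at day 3 and 8.11, 7.86 and 7.81 at day 9. The treated arrays lay far below saline at day 3 and, having risen, still below it at day 9, with a difference of the changes of 2.49 ± 0.23 (adjusted p = 9.78e-05). The other 3 probe sets of Rai14 had changes of the same sign, and none passed.

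Rbfox2, an RNA-binding splicing regulator, measured 5.67, 5.88 and 6.17 at day 3 and 8.0, 8.20 and 7.59 at day 9, a rise of 2.03 ± 0.28, against 6.94, 6.18 and 6.75 at day 3 and 6.24, 6.69 and 5.92 at day 9 in saline. Its treated arrays lay below saline at day 3 by a narrow margin and above it at day 9, and the difference was 2.37 ± 0.40 (adjusted p = 0.0261). As in Rai14, 3 further probe sets had the same sign and did not pass. Over the alternative fits the difference of Rbfox2 ranged from 0.75 to 2.59. With the mean of its probe sets it did not pass, whereas that of Rai14 did. Nufip2 rose by 1.09 and Coq10b, a coenzyme Q binding protein, by 0.80, beside -0.23 and -0.34 in saline. Of the other 2 probe sets of Nufip2 1 had the same sign and neither was called, and with the mean of its probe sets the difference was 0.47 and did not pass (adjusted p = 0.243). Trib1, a pseudokinase linked to hepatic lipid synthesis, Dnajc22, Spr, a reductase of biopterin synthesis, and Ttc17 were the other 4, with treated changes of 0.97, 0.91, 0.53 and 0.26, besides Abcg5 above. The difference of Trib1 did not pass with the mean of its probe sets.

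Of the 17 genes whose treated change lay below the saline change, several are known as interferon-induced or as genes of immune cells without being in the lists: Phf11d, Ifi204, Slfn4, Ifit1bl1, Ms4a4c, Lgals3bp and Shisa5, named after their values were seen. Phf11d measured 8.14, 8.56 and 7.90 at day 3 and 6.95, 6.75 and 7.27 at day 9 in treated mice, with saline at 6.62, 6.58 and 6.74 at day 3 and 6.64, 6.66 and 6.67 at day 9. Ifi204, a DNA sensor, fell by 1.36, Slfn4 by 1.02 and Lgals3bp by 0.85. In these genes the treated days did not overlap. The B cell genes Igkv8-30 and Fcmr fell by 0.97 and 0.57, beside saline changes of 0.38 and 0.35 that did not pass.

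Ranbp3l and Cdk19 entered that group through saline. Ranbp3l measured 5.22, 4.99 and 5.11 at day 3 and 5.21, 5.29 and 5.21 at day 9 in treated mice and rose from 5.23, 5.16 and 5.12 to 6.53, 6.39 and 6.76 in saline. Cdk19, a kinase of the mediator complex, rose in saline by 0.57 and measured a change of -0.06 in treated mice. The differences of -1.26 and -0.63 passed (adjusted p = 0.00735 and 0.0316). The other probe set of Ranbp3l gave a difference of -0.012, and with the mean of both the difference was -0.63 and did not pass (adjusted p = 0.146). The other probe set of Cdk19, of similar level, rose by 0.51 in treated mice and by 0.74 in saline. Its difference of -0.23 did not pass when every probe set was tested (adjusted p = 0.782). Mt2, a metallothionein, had a difference that did not pass. It rose from 8.11, 8.04 and 9.87 to 11.42, 11.95 and 12.12 in saline and measured 9.38, 10.44 and 8.54 at day 3 and 10.03, 10.36 and 11.70 at day 9 in treated mice, with an adjusted p of 0.314 for the difference.

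**Figure D4:**
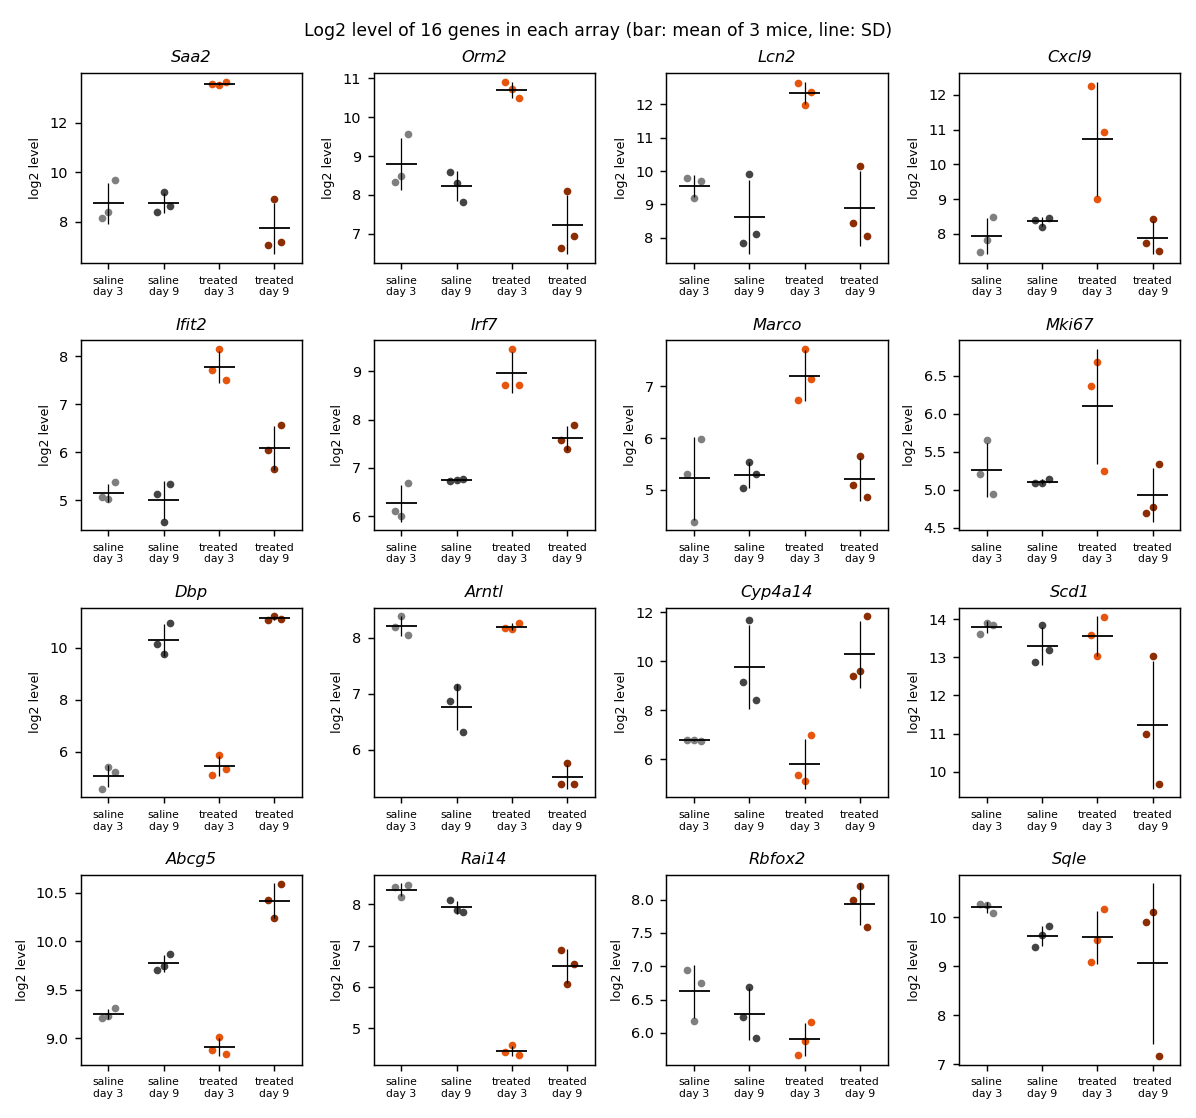
Log2 level (y axis, with its own range in each panel) of 16 genes in each of 12 arrays, grouped by saline or treated and by day, with a bar for the mean of 3 mice and a vertical line for the SD. Saa2, Orm2, Lcn2, Ifit2, Irf7 and Marco are highest in treated day 3, Dbp, Arntl and Cyp4a14 move with the day in both treatments, Rai14 is lowest in treated day 3, and replicate 3 of treated day 9 is low in Sqle and Scd1.

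These comparisons rest on 3 mice per group, and the spread was estimated over 6 groups of the series. Of 101 named genes called in the treated comparison, 70 remained called whichever single array was left out. The count of differences moved with single saline arrays too, from 26 to 7 without replicate 1 of saline day 3 and to 64 without replicate 2 of saline day 9. Of the 26 genes with a difference 6 remained called: Saa1, Saa2, Saa3, Rai14, Ranbp3l and Ttc17. With the arrays of these 4 groups fitted without the others, Saa3 and Ttc17 did not pass. The 31 treated calls lost when some single array was left out were those of Ifit1, Gzmb, Cd3e, Vsig4, C1qb, C9, Cfp, Cxcl13, Ngp, Mki67, Top2a, Mcm5, Rrm2, Acly, Acacb, Elovl6, Acot3, Hjv, Adam10, P4ha1, Nqo1, Gclm, Abcc3, Ndufs1, Hspa1b, Manf, Syvn1, Lum, Reln, Cdh5 and Hbb-b2. With the beta-actin ratio as a covariate the treated calls of Ifit1, Cxcl13, Cd3e, Adam10, Acot3, Ndufs1, Cdh5 and Reln were lost beside those given above, as were the difference calls of Shisa5, Lgals3bp, Igkv8-30 and Dnajc22.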

How the data were processed

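Total RNA of mouse liver was hybridised to Affymetrix expression arrays, 1 array per sample. The authors deposited log2 expression values of 45101 probe sets on 21 arrays, made with RMA per the submitters' processing notes, and the sources used here name neither its version nor which arrays entered 1 normalization. RMA corrects background, sets all arrays to 1 distribution and summarises probes, so a shift common to all genes cannot be seen, and folds of dim probe sets are compressed. Array medians lay between 4.75 and 4.82. All columns were mapped to samples, and 0 were left unused.

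Probe sets with 1 gene symbol (34945; 932 had several and 9160 none) were reduced to 18193 genes by keeping that with the highest mean. limma 3.58.1 in R 4.3.3 (lmFit, eBayes) was fitted to 18 arrays in 6 groups of 3, with 12 residual and 4.85 prior degrees of freedom. The contrasts were treated day 9 minus day 3, the same in saline, and their difference (an interaction term), each two-sided with Benjamini-Hochberg adjustment over 18193 genes at 0.05. The number of arrays limits the precision, and 3 arrays that repeat mice of day 23 were left out. The labels repeat mouse numbers across days, but mice were sacrificed on the day of sampling and were taken as different animals. Deviations of arrays with the same replicate number correlated at -0.004, -0.06 and -0.09 in treated mice and, with the same mouse number too, at -0.07, -0.15 and 0.06 in saline mice. The arrays of mouse number 8, treated day 3 replicate 3 and day 9 replicate 2, correlated at 0.13. No replicate block was used. The script was tested on simulated data. Promoters were read with Biopython 1.88 and pandas 2.3.3 in Python 3.11.15 from RefSeq windows, and figures were drawn with matplotlib 3.10.9.

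Named genes were the 12 largest increases and 12 largest decreases among called genes whose arrays did not overlap, the 5 largest differences each way, up to 4 called members per list (2 of the highest level where none passed) and a fixed set of microRNA-122 targets, serum amyloid A, interferon and macrophage genes. Other list members are named after their values were seen. The members, lists and motifs were chosen with earlier results of these data known. Alternatives changed the arrays in the fit, the normalization, the filter on level, the probe set rule, the prior, the block, the threshold, a beta-actin covariate and each array in turn.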

Additional observations from a re-analysis of the deposited data

Results flagged for a closer look

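The change from day 3 to day 9 differed between treated and saline mice for 26 genes, tested with the interaction term of the limma fit at an adjusted p of 0.05. Each value is the treated change minus the saline change in log2, and 2117 genes had an unadjusted p under 0.05 in the same test. Among acute phase genes the difference was -5.85 for Saa2, -4.33 for Saa3, -4.02 for Saa1 and -2.92 for Orm2. Saa1 and Saa2 are near-identical, so their values are not separate evidence.

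Among interferon-related genes it was -1.84 for Irf7, -1.64 for Oasl2, -1.22 for Phf11d, -1.20 for Slfn4, -1.10 for Ifi204, -0.88 for Ifit1bl1, -0.83 for Lgals3bp and -0.69 for Shisa5. For genes of immune cells it was -1.36 for the immunoglobulin gene Igkv8-30, -1.33 for Ms4a4c and -0.92 for Fcmr. Ranbp3l at -1.26 and Cdk19 at -0.63 were called for a rise in saline, and the other probe set of each gave a smaller difference.

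In the other direction the difference was 2.49 for Rai14, 2.37 for Rbfox2, 1.32 for Nufip2, 1.15 for Coq10b, 0.99 for Abcg5, 0.97 for Trib1, 0.96 for Dnajc22, 0.68 for Ttc17 and 0.58 for Spr. The differences of Rbfox2, Nufip2 and Trib1 did not pass with the mean of their probe sets. Ttc17 was called in both treatments with opposite signs. No explanation of these differences was tested.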

How the results depend on the processing

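The treated count of 2226 genes was 1411 with the 6 treated arrays fitted alone, 1346 under the stricter filter on level (fewer genes tested), 3401 when every probe set was tested, 53 for changes shown to exceed 1.5-fold and 1294 with the beta-actin ratio as a covariate. It ranged from 1251 to 1968 when 1 array was left out, the lowest without replicate 1 of treated day 3, where 1218 of the calls were shared. Fits on 12 or 21 arrays, other normalizations, the mean of probe sets and another prior stayed within 1.5 times, although median centring moved the split to 1611 higher and 668 lower and the filter at the median level to 1502 and 762. The saline count of 1070 was 693 with its own arrays, 34 beyond 1.5-fold, 593 with the covariate and 608 to 902 with 1 array left out, with 661 and 705 without replicates 1 and 3 of day 3 and the lowest without replicate 3 of day 9. The difference count of 26 was 7 with own arrays, 4 beyond 1.5-fold and 7 to 64 with 1 array left out; it moved by over 1.5 times without any single array other than replicates 2 and 3 of treated day 3 and replicate 3 of treated day 9. With the replicate number as a block, which in saline is also the labelled mouse number, the counts were 2081, 995 and 22.

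Signs turned for genes near 0 that were not called. With the covariate Ebp was at 0.038, Rpl4 at -0.013, Cela1 at -0.11 and Slc7a1 at 0.028. With quantile normalization Rps2 was at 0.021, Bckdk at -0.000865 and Slc7a1 at 0.028, with median centring Rps2 at 0.014, and with the mean of probe sets Bckdk at -0.12. With 1 array left out, Hmgcs1 ranged from -0.049 to 0.84, Ebp from -0.18 to 0.10, Rps2 from -0.075 to 0.016, Rpl4 from -0.019 to 0.048 and Cela1 from -0.11 to 0.27. The cause was not tested. Of 101 named calls 67 were kept in every alternative other than the 1.5-fold test.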
